A study of Mus musculus with 4 samples.

Results

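The 9 genes described here encode cytokines and death ligands of T cells: Ifng, Tnf, Csf2, Il2, Il21, Il10, Fasl, Tnfsf10 and Fas, the last being the receptor of the Fasl product. They were chosen by symbol, as 9 of the 32285 genes in the files, and their unique molecular identifiers (UMIs, each counting 1 captured RNA molecule) were followed across CD8+ and CD4+ T cell (Tc) states. Single-cell RNA was captured from the 3′ ends of transcripts in spleen Tc of 4 mice, with 1 library per mouse and 2 libraries per genotype. The BALB/c mice had received total body irradiation at a lethal dose, 10000 WEHI-3B cells (a mouse myelomonocytic leukemia line), bone marrow and, on day 2, 200000 donor Tc, and their spleens were taken on day 23. The donor Tc, of C57BL/6 background, were either Havcr2fl/fl;E8icre/+, in which the E8i element of the Cd8a gene drives Cre recombinase in CD8+ cells to delete Havcr2 (the gene of the checkpoint receptor TIM-3), or Havcr2fl/fl, which carry the same floxed allele without Cre. According to the paper, the bone marrow graft was of the same genotype as the Tc. Every mouse thus had leukemia, irradiation and transplanted Tc, no library came from healthy mice, and the CD4+ Tc of both genotypes came from cells in which E8i-Cre is not meant to act. The Tc were enriched with a pan-T kit and stained with a tagged antibody to the donor haplotype H-2Kb. The question addressed was how the members are distributed over Tc states, and whether their levels differed between the genotypes.

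Activated Tc make cytokines in bursts after their antigen receptor is engaged, so the mRNA of one cytokine is found in some cells of a state and not in others at any moment. Interferon-gamma (Ifng), tumor necrosis factor (Tnf) and granulocyte-macrophage colony-stimulating factor (Csf2) act on myeloid and tissue cells, interleukin 2 (Il2) and interleukin 21 (Il21) act on other lymphocytes, and interleukin 10 (Il10) dampens inflammation. FAS ligand (Fasl) and TRAIL (Tnfsf10) are TNF family proteins that trigger cell death through receptors such as FAS, and in the setting of allogeneic transplantation FAS ligand and interferon-gamma are known for their part in killing leukemia cells and host tissue.

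Cytokine mRNAs are short-lived, and AU-rich elements in their 3′ untranslated regions (UTRs), built from repeats of ATTTA, are the known binding sites of the ZFP36 family of decay factors. The counted tags come from the 3′ ends of the transcripts. For the 8 members whose 3′ UTR holds ATTTA, a window of 30 bases with the most copies is therefore shown. Where several windows held equally many, 1 was picked by position, as for Il10, whose window holds 1 ATTTA. The windows are printed 5′ to 3′ on the strand of the gene, from the GENCODE transcripts of GRCm38, with each ATTTA in capitals.
Ifng: tATTTAttaatATTTAaaactATTTAtatg
Tnf: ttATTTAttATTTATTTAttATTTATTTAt
Csf2: ttttaaatATTTATTTATTTATTTATTTAt
Il2: tATTTATTTAaatATTTAactttaATTTAt
Il21: tgatttttatATTTAagacaatgtATTTAt
Il10: tcgtttgtacctctctccgaaatATTTAtt
Fasl: tATTTAtgctctgaacatcctaatgaggaa
Tnfsf10: attgttttacctATTTAtcatATTTAtcac
These windows lie at chr10:118445334-118445363 on the plus strand for Ifng, chr17:35199678-35199707 on the minus strand for Tnf, chr11:54247328-54247357 on the minus strand for Csf2 and chr3:37121039-37121068 on the minus strand for Il2. That of Il21 lies at chr3:37223640-37223669 on the minus strand, that of Il10 at chr1:131024374-131024403 on the plus strand, that of Fasl at chr1:161780751-161780780 on the minus strand and that of Tnfsf10 at chr3:27339343-27339372 on the plus strand. Over the whole 3′ UTR, ATTTA was found 9 times in Csf2 and Il21, 8 times in Tnf and Tnfsf10, 7 times in Il2, 6 times in Ifng and Il10, once in Fasl and 0 times in Fas, against a median of 1 in 20481 coding genes. The longer form TATTTAT, which overlaps the pentamer, occurred 9 times in Csf2, 8 in Tnf, 4 in Ifng and Il10, 3 in Il2 and Tnfsf10, 2 in Il21 and 1 in Fasl, counting overlapping matches on the strand of the gene, and 3.79% of the coding genes held 3 or more. The UTRs differ in length, from 317 bases in Csf2 to 3998 in Tnfsf10, so these counts are not densities. They describe the letters only. Il2, Il21 and Csf2 overlap annotated genes on the opposite strand (Adad1, Gm12534 and Gm12223).

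The files held 15784 barcodes with 17693991 to 55045903 gene UMIs per library, and 28 barcode sequences occurred in more than 1 library. After removal of poor cells and called doublets, 4255 CD8+ and 1755 CD4+ Tc remained, 221 Tc had UMIs of both Cd8 and Cd4 and 532 of neither, and 4750 cells lay in clusters without the Tc markers Cd3e, Cd3d and Cd3g. Havcr2, the targeted gene, stood in CD8+ Tc at 61.2 CPM (UMIs of a gene per 1000000 UMIs of the same cells) in the library labelled Havcr2fl/fl;E8icre/+ replicate 1, 7.94 in replicate 2, 54.7 in Havcr2fl/fl replicate 1 and 115 in replicate 2. Summed over CD8+ Tc, the library labelled Havcr2fl/fl;E8icre/+ replicate 1 thus kept Havcr2 RNA at the level of a control library, so genotype differences below are also given without it. By CD8+ state, defined below, both Havcr2fl/fl;E8icre/+ libraries lay below both Havcr2fl/fl libraries in precursor exhausted-like, effector-like and short-term effector-like cells. Their means there were 1.09 against 15.6, 25.1 against 127 and 22.1 against 44.8 CPM. The genotypes overlapped in Gzma Nr4a2 (84.1 against 195), Itga1 Cd160 (33.0 against 55.1) and cycling-like cells (33.0 against 87.5). In CD4+ Tc Havcr2 was 56.4 and 29.2 in the Havcr2fl/fl;E8icre/+ libraries and 16.8 and 49.3 in the Havcr2fl/fl libraries. Levels below are in CPM, and values in 4 libraries are given in that order, Havcr2fl/fl;E8icre/+ replicates 1 and 2 and then Havcr2fl/fl replicates 1 and 2, with means ± SD over n = 4 libraries.

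In CD8+ Tc, Fasl was at 110.5, 106, 112 and 118 CPM (112 ± 4.82), a narrow range, and in CD4+ Tc at 38.5, 56.6, 40.3 and 39.6 (43.8 ± 8.58). Every CD8+ value lay above every CD4+ value. With each cell thinned to 2000 UMIs, so that depth was equal, Fasl was detected in 21.4%, 18.8%, 22.4% and 21.2% of CD8+ Tc and in 9.32%, 8.59%, 8.55% and 7.36% of CD4+ Tc. Il21 ran the other way, with 5.09, 9.5, 6.77 and 5.61 CPM in CD8+ Tc (6.74 ± 1.97) and 62.6, 59.9985, 58.5 and 75.4 in CD4+ Tc (64.1 ± 7.70). Tnf was at 4.64, 9.5, 7.02 and 4.78 CPM in CD8+ Tc (6.49 ± 2.29) and at 12, 23.5, 11.4 and 24.2 in CD4+ Tc (17.8 ± 6.99). For both genes the lowest CD4+ library was above the highest CD8+ library.

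Ifng and Tnfsf10 were present in both lineages with overlapping ranges. Ifng was at 86.6, 84.1, 111 and 116 CPM in CD8+ Tc (99.4 ± 16.4) and at 86.0, 72.0, 56.5 and 151 in CD4+ Tc (91.3 ± 41.4), where the libraries were far more spread. Thinned to equal depth, it was seen in 14.6%, 13.2%, 14.0% and 18.1% of CD8+ Tc and 12.9%, 10.9%, 13.2% and 16.3% of CD4+ Tc, against 0.856%, 0%, 0.259% and 0.204% of the cells outside the Tc clusters. Before thinning, the median cell had 3024 to 6974 UMIs among CD8+ Tc, 2746 to 5406 among CD4+ Tc and 12279 to 18825 outside the Tc clusters. Tnfsf10 was at 103, 112, 97.1 and 84.1 CPM in CD8+ Tc (99.1 ± 11.7) and at 126, 115, 77.3 and 89.9 in CD4+ Tc (102 ± 22.4). Fas was at 35.6, 28.7, 36.6 and 23.3 CPM in CD8+ Tc (31.0 ± 6.29) and at 26.5, 33.7, 20.2 and 29.96 in CD4+ Tc (27.6 ± 5.73). Neither gene separated the lineages.

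Csf2, Il10 and Il2 were sparse. Csf2 was at 2.72, 6.1, 3.51 and 2.91 CPM in CD8+ Tc and 2.75, 4.96, 6.05 and 14.5 in CD4+ Tc. Il10 was at 6.90, 1.99, 10.3 and 10.2 CPM in CD8+ Tc (7.34 ± 3.9) and 24.1, 4.96, 2.69 and 23.2 in CD4+ Tc (13.7 ± 11.5), so that libraries of one lineage differed among themselves as much as the lineages did. Il2 rested on 6, 9, 2 and 4 UMIs in the CD8+ Tc of the 4 libraries (0.679, 1.28, 0.502 and 0.831 CPM) and stood at 2.06, 4.43, 4.71 and 7.73 CPM in CD4+ Tc.

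**Figure D1:**
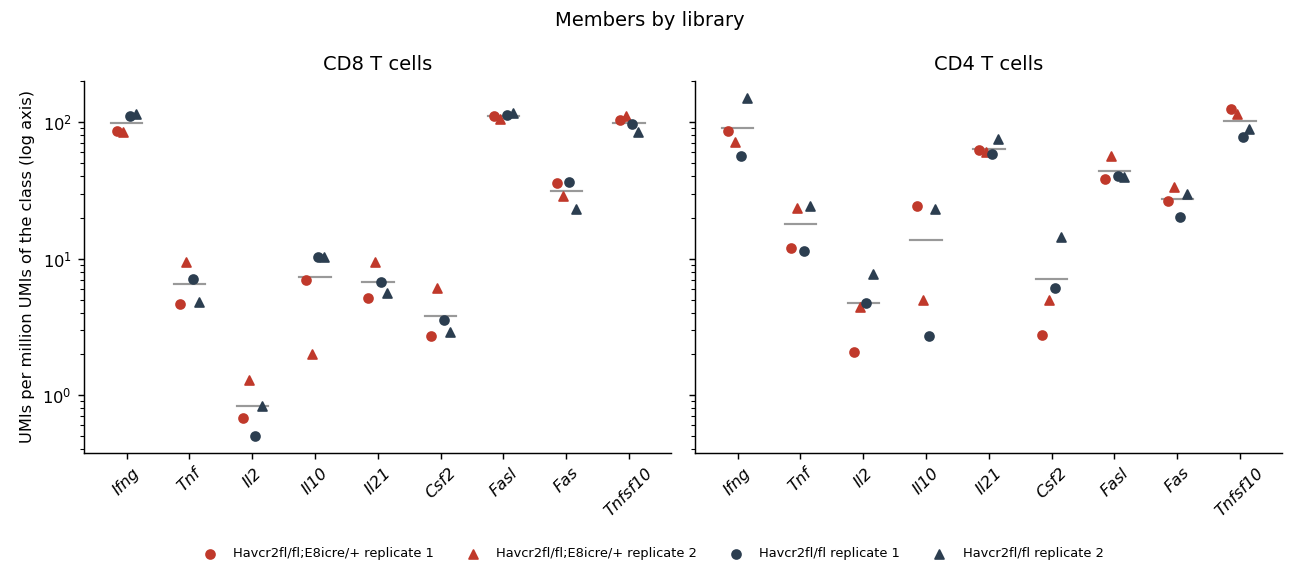
Level of each of the 9 genes in CD8+ Tc (left) and CD4+ Tc (right), in CPM of the class on a log axis. Points are the 4 libraries (red, Havcr2fl/fl;E8icre/+; dark, Havcr2fl/fl; circles, replicate 1; triangles, replicate 2) and grey bars their means. Fasl lies higher on the left and Il21 and Tnf on the right in all 4 libraries, while Ifng, Fas and Tnfsf10 overlap between the panels.

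When UMIs were summed per library and lineage and the lineages compared within mice (edgeR's quasi-likelihood test, with Benjamini-Hochberg adjustment over 10309 genes), 1 of the 8 members tested was higher in CD8+ Tc and 2 were lower. Over all genes, 12.1% were called higher and 12.2% lower, so that 3 of 8 is not far from the share of all genes called. Fasl was higher in CD8+ Tc by 1.36 on the log2 scale (SE 0.10, adjusted p = 6.55e-07 by edgeR). Il21 differed by -3.16 (SE 0.17, adjusted p = 2.36e-08 by edgeR) and Tnf by -1.35 (SE 0.22, adjusted p = 0.000527 by edgeR), both lower in CD8+ Tc. The log2 differences of the others were 0.22 for Ifng (SE 0.14), 0.21 for Fas (SE 0.16), 0.00 for Tnfsf10 (SE 0.09), -0.49 for Csf2 (SE 0.39) and -0.98 for Il10 (SE 0.37), with edgeR adjusted p of 0.305, 0.393, 0.984, 0.405 and 0.07. The median over the 8 members was -0.245, beside 0.00426 over all genes. Il2 had too few UMIs for the test, and without the filter on low counts its difference was -2.17 (edgeR adjusted p = 0.000126). When the lineage was taken from the cluster instead of from Cd8 and Cd4 UMIs, Tnfsf10 (-0.62, edgeR adjusted p = 6.01e-05), Ifng (0.61, adjusted p = 0.00755) and Csf2 (-1.88, adjusted p = 0.00269) were called as well. Il10 was called without Havcr2fl/fl replicate 1 (-1.46, edgeR adjusted p = 0.00066).

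Early response genes such as Jun and Dusp1, which are also known to rise during tissue dissociation, moved with the lineages, at a summed 374, 418, 385 and 501 CPM in CD8+ Tc and 725, 757, 709 and 923 CPM in CD4+ Tc. Their part in the differences of Tnf and Il21 was not tested. Markers of other cells were also detected in the Tc. Summed erythroid markers ran from 941 to 4645 CPM in CD8+ Tc and from 192 to 3628 in CD4+ Tc. The 5 NK cell markers (Ncr1, Klrb1c, Tyrobp, Fcer1g and Klra8) summed to 13.7, 75.9, 16.8 and 54.8 CPM in CD8+ Tc. In CD4+ Tc they summed to 12.7, 8.61, 18.8 and 26.1 CPM. Of these markers, Klra8 was at 0 in both lineages of every library. Ncr1 was at 0 in all but the CD4+ Tc of Havcr2fl/fl replicate 2. Fcer1g was also a leading gene of a CD8+ state described below, Itga1 Cd160 cells, so this sum does not by itself mark RNA of NK cells. Outside the Tc clusters Fasl reached at most 1.76 CPM and Il21 at most 0.923.

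Tc were then grouped into states by clustering without the 9 members, and states were named by fixed markers or, where those gave no single name, by genes picked for each. Of the picked genes, Itga1, Gzma, Igfbp7, Ifitm1 and Klrk1 were among the leading genes of their cluster, and Cd160, Nr4a2 and Cxcr6 were not. The states with at least 20 cells in every library were 6 of CD8+ Tc and 4 of CD4+ Tc. In CD8+ Tc they were precursor exhausted (TPEX)-like cells with Tcf7 and Slamf6, effector-like cells with Gzmk and Prf1, short-term effector-like cells with Klrg1 and Cx3cr1, a cycling-like cluster in S phase, and 2 clusters called by their genes, Itga1 Cd160 cells and Gzma Nr4a2 cells. Gzmk and Prf1 were also raised in Gzma Nr4a2 cells, which had 6 of 7 effector markers and 6 of 8 markers of terminally exhausted cells. Effector-like cells had 3 of those 8 raised, and Itga1 Cd160 cells had 3 (Pdcd1, Lag3 and Cd160). In CD4+ Tc the states were cytotoxic-like, precursor or memory-like, Igfbp7 Cxcr6 and Ifitm1 Klrk1 cells. The smaller clusters are left out of the orders and ranges below and are named where their values are given. Levels over these states are a description without a test, and in such sums fewer cells with a transcript and less of it per cell cannot be told apart.

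Fasl, the ligand that engages FAS on target cells, gave the clearest order in CD8+ Tc. It was highest in effector-like cells, at 254, 251, 219 and 219 CPM (236 ± 19.5), followed by Itga1 Cd160 cells (173 ± 12.7) and Gzma Nr4a2 cells (161 ± 22.7), whose ranges overlapped each other. Short-term effector-like cells were at 120.02, 108, 98.0 and 98.8 CPM (106 ± 10.3), cycling-like cells at 85.2, 77.1, 80.1 and 88.0 (82.6 ± 4.89), and TPEX-like cells at 15.03, 16.2, 34.4 and 23.5 (22.3 ± 8.89). Apart from the pair named, no neighbours in this order overlapped. TPEX-like cells held 2.05% of the Fasl UMIs of CD8+ Tc (56 of 2737) but 11.4% of all their UMIs. In CD4+ Tc, Fasl was highest in cytotoxic-like cells, at 102, 180.3, 74.2 and 144 CPM (125 ± 46.6), and lowest in precursor or memory-like cells, at 14.1, 7.92, 20.5 and 0. Precursor states of both lineages thus stood lowest for Fasl.

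Ifng, which activates macrophages and raises antigen presentation, did not order the CD8+ states in the same way. The means ran from Gzma Nr4a2 cells, at 121, 121, 222 and 180.3 CPM (161 ± 49.3), through effector-like (136 ± 19.8), Itga1 Cd160 (116 ± 16.5), cycling-like (95.5 ± 19.6) and short-term effector-like cells (71.1 ± 17.9) to TPEX-like cells, at 24.6, 29.2, 17.2 and 81.1 (38.0 ± 29.2). All neighbours in this order overlapped. In CD4+ Tc 1 state stood apart: cytotoxic-like cells were at 342, 304, 148 and 478 CPM (318 ± 136), above every library of the other 3 states, which lay at 56.2 ± 50.1 in precursor or memory-like, 55.9 ± 39.1 in Igfbp7 Cxcr6 and 44.8 ± 14.5 in Ifitm1 Klrk1 cells. These cytotoxic-like cells held 55.6% of the Ifng UMIs of CD4+ Tc (426 of 766) with 15.1% of all UMIs, and at equal depth 38.8%, 38.0%, 31.9% and 48.4% of them had an Ifng UMI. Their mean exceeded that of each of the 6 CD8+ states.

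Tnfsf10, the TRAIL gene, was spread more evenly. In CD8+ Tc it was highest in Itga1 Cd160 cells, at 195, 172, 167 and 166 CPM (175 ± 13.4), and stood at 123 ± 35.2 in effector-like, 109 ± 11.3 in Gzma Nr4a2 and 103 ± 15.1 in TPEX-like cells. TPEX-like cells, which stood lowest for Fasl and Ifng, were therefore among the states with Tnfsf10 RNA, all 4 of their libraries (102, 124, 92.3 and 91.6 CPM) lying above those of the cycling-like cells (75.9, 69.5, 59.5 and 48.2). Short-term effector-like cells were at 63.4, 65.4, 33.2 and 32.2 CPM. In CD4+ Tc it was highest in Igfbp7 Cxcr6 cells, at 215, 202, 120.01 and 183 CPM (179.9 ± 42.0), which held 51.9% of the Tnfsf10 UMIs of CD4+ Tc with 30.1% of all UMIs. Cytotoxic-like cells were at 147, 131, 108 and 136 CPM and overlapped them, and both lay apart from Ifitm1 Klrk1 (58.3 ± 23.2) and precursor or memory-like cells (53.1 ± 21.8).

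Fas, the death receptor, ran largely opposite to its ligand over the means of the 6 CD8+ states. Among the 6 CD8+ states it was highest in TPEX-like cells, at 45.1, 45.4, 42.9 and 31.4 CPM (41.2 ± 6.63), and lowest in effector-like cells, at 15.9, 12.4, 12.9 and 7.98 (12.3 ± 3.27), with 20.7 to 39.2 as the means of the states between. In CD4+ Tc precursor or memory-like cells were highest, at 79.7, 55.4, 30.8 and 51.4 CPM. The lowest CD4+ mean was that of Ifitm1 Klrk1 cells (22.8), below the cytotoxic-like cells (27.3) in which Fasl was highest. Neighbouring states overlapped throughout, while TPEX-like and effector-like cells did not overlap. Over the 10 states of both lineages the Pearson correlation of Fas with Fasl on log2(CPM + 1) was -0.66. This is a description over states of the same 4 libraries and includes differences between the lineages.

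**Figure D2:**
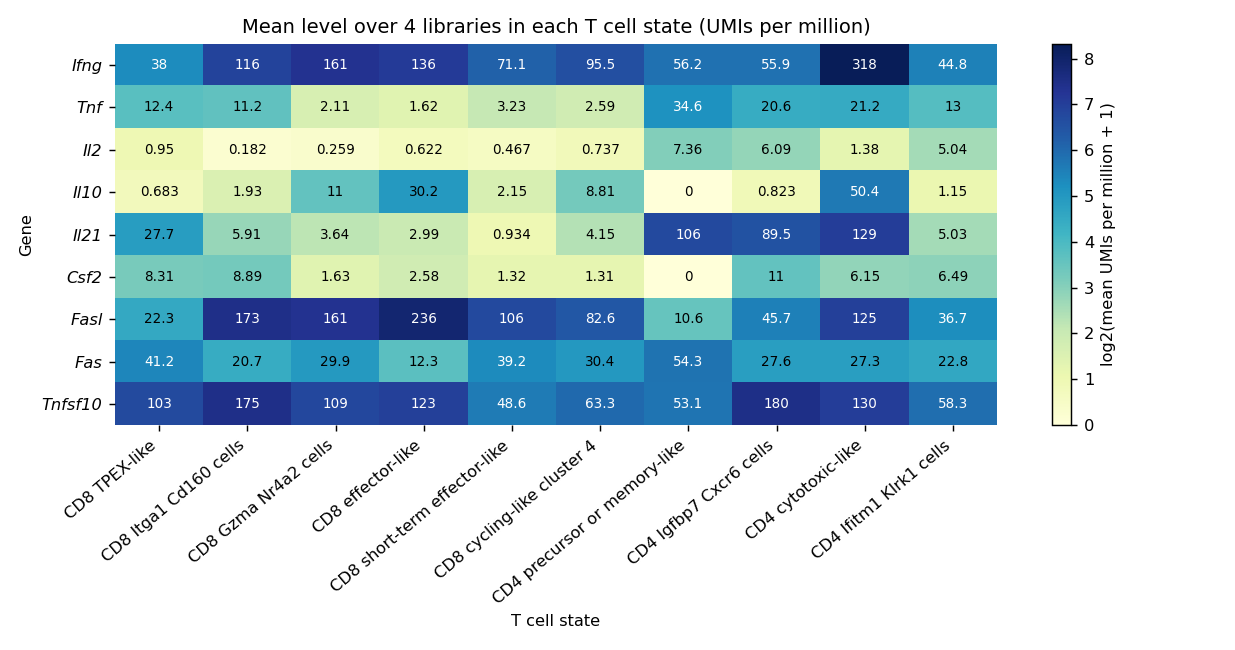
Mean level over the 4 libraries of each gene (vertical axis) in each of the 10 Tc states (horizontal axis), printed as CPM and colored by log2(mean + 1). The effector-like column is darkest for Fasl, at 236, and lightest for Fas among the 6 CD8+ states, at 12.3, and Ifng is darkest in CD4 cytotoxic-like cells, at 318.

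Il21, a cytokine of helper Tc that acts on B cells and CD8+ Tc, was found in 1 CD8+ state above all others. TPEX-like cells had 30.06, 30.001, 19.3 and 31.4 CPM (27.7 ± 5.62), from 22, 37, 9 and 12 UMIs, and the means of the other 5 CD8+ states were at most 5.91. They held 48.2% of the Il21 UMIs of CD8+ Tc (80 of 166). At equal depth 5.23%, 5.43%, 4.62% and 4.59% of TPEX-like cells had an Il21 UMI. In CD4+ Tc the cytotoxic-like (129 ± 63.4), precursor or memory-like (106 ± 39.5) and Igfbp7 Cxcr6 cells (89.5 ± 26.4) overlapped. Ifitm1 Klrk1 cells, at 2.48, 6.12, 6.94 and 4.58 CPM, lay below all of them, and regulatory-like cells with Foxp3 had 0 Il21 UMIs in 109 cells.

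Tnf and Csf2, inflammatory cytokines made by many activated Tc, were highest in TPEX-like and Itga1 Cd160 cells among the 6 CD8+ states. Tnf was at 10.9, 18.6, 4.29 and 15.7 CPM in TPEX-like cells (12.4 ± 6.27) and at 12.7, 13.1, 12.2 and 6.76 in Itga1 Cd160 cells (11.2 ± 2.99), against means of 1.62 to 3.23 in the other 4 states. Csf2 was at 8.46, 11.7, 10.0 and 5.41 CPM in Itga1 Cd160 cells and at 6.83, 8.11, 0 and 18.3 in TPEX-like cells, and at means of at most 2.58 in the other 4 states. The TPEX-like values rested on 22 UMIs, with a log2 ratio to other CD8+ Tc of 0.57 ± 2.18. Before thinning, a mean of 0.870% of TPEX-like cells in the Havcr2fl/fl libraries had a Csf2 UMI, against 4.33% in the Havcr2fl/fl;E8icre/+ libraries. Itga1 Cd160 cells held 41.1% of the Csf2 UMIs of CD8+ Tc (39 of 95) and 30.8% of the Tnf UMIs, with 17.0% of all UMIs. In CD4+ Tc Tnf was highest in precursor or memory-like cells, at 28.1, 39.6, 25.6 and 44.9 CPM, overlapping cytotoxic-like cells, next in the order (mean 21.2). Tnf in Ifitm1 Klrk1 cells (mean 13.0) was below the other CD4+ Tc of the same library in 4 of 4 libraries. The precursor or memory-like cells had 0 Csf2 UMIs, whereas Igfbp7 Cxcr6 cells held 52.9% of the CD4+ Csf2 UMIs (27 of 51). Without the cell richest in Tnf in each library, the log2 ratio of precursor or memory-like cells to other CD4+ Tc fell to 0.47.

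Il10, which restrains inflammation, was highest in effector-like and cytotoxic-like cells among the 10 states, and was also found in the smaller regulatory-like cluster. In CD8+ Tc it was at 44.2, 14.9, 25.7 and 35.9 CPM in effector-like cells (30.2 ± 12.7), which held 27.9% of the Il10 UMIs (46 of 165) with 5.88% of all UMIs, and at 11.0 ± 6.91 in Gzma Nr4a2 and 8.81 ± 7.40 in cycling-like cells. In CD4+ Tc cytotoxic-like cells were at 111, 15.8, 11.1 and 63.8 CPM, from 62, 7, 3 and 8 UMIs, and the other 3 states had means of at most 1.15. Regulatory-like cells, a known source of Il10, were at 53.9, 8.27, 25.3 and 315 CPM, above the other CD4+ Tc of the same library in 4 of 4 libraries, from 34, 53, 5 and 17 cells. They held 19.7% of the CD4+ Il10 UMIs (23 of 117) with 4.72% of all UMIs, and 11 of the 23 came from a single cell of Havcr2fl/fl replicate 2. Il2, the growth factor of Tc, had a mean of at most 0.95 CPM in each of the 6 CD8+ states. In CD4+ Tc it was at 4.69, 13.2, 5.13 and 6.42 CPM in precursor or memory-like cells and at 1.38 ± 1.77 in cytotoxic-like cells.

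**Figure D3:**
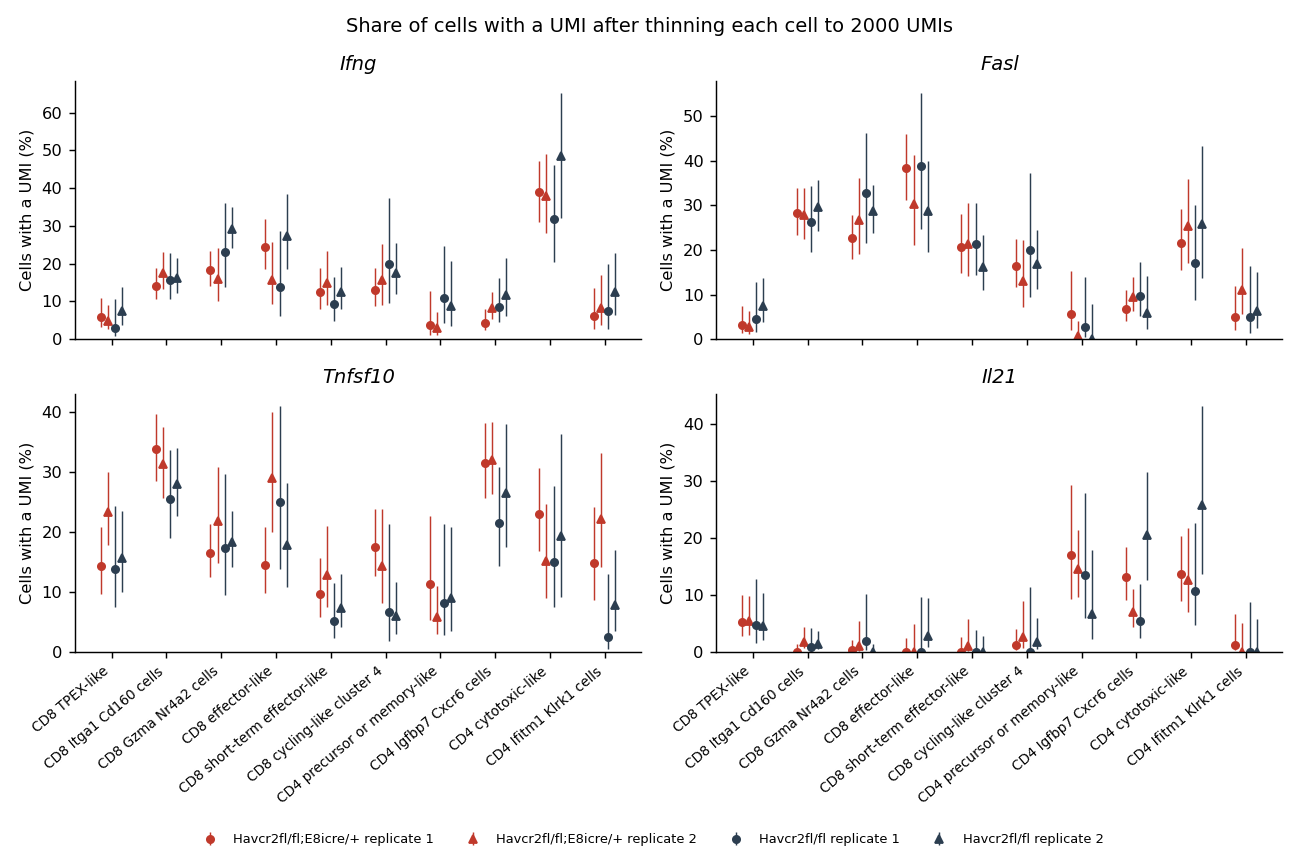
Share of cells with at least 1 UMI of Ifng, Fasl, Tnfsf10 or Il21 (vertical axes, percent) in each state (horizontal axes) after thinning every cell to 2000 UMIs. Points are libraries (red, Havcr2fl/fl;E8icre/+; dark, Havcr2fl/fl; circles, replicate 1; triangles, replicate 2) and lines their 95% Wilson intervals, which cover counting error only. CD4 cytotoxic-like cells are highest for Ifng, at 31.9% to 48.4%, and TPEX-like cells stand out among the 6 CD8+ states for Il21, at 4.59% to 5.43%.

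A smaller CD8+ cluster, interferon-stimulated-like cells with Ifit1 and Isg15, fell short of 20 cells in 1 library (18 in Havcr2fl/fl replicate 1). Its Ifng levels were 151, 189.7, 354 and 276 CPM and its Tnf levels 22.6, 19.96, 42.2 and 10.2. Its Fas levels, at 90.6, 59.9, 101 and 30.6 CPM, had a mean of 70.6, above the 41.2 of TPEX-like cells. Its Il21 levels were 12.6, 9.98, 42.2 and 10.2 CPM, from 5, 4, 5 and 1 UMIs. All 4 genes were above the other CD8+ Tc of the same library in 4 of 4 libraries. Fasl had a mean of 137 CPM in this cluster, beside 110 in the other CD8+ Tc, and was higher in 3 of 4 libraries. This cluster held 247 cells, and Ifngas1 was among its leading genes. The Ifng level depended on how the clusters were drawn. At a higher resolution the cluster given this name held 32 cells and was low in Ifng, with a log2 ratio to other CD8+ Tc of -2.25. With the members among the clustering genes, the cluster of this name held 33 cells and had -2.30. Without integration the cluster of this name held 30 cells. Most of the 247 cells therefore did not carry this name in any of these alternatives.

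For each member with at least 10 CPM in a lineage, the 3 genes most like it over the 10 states were found by the Pearson correlation of log2(CPM + 1), among 7854 genes, as a description without a test. For Fasl these were Dapk2 (0.98), Gimap7 (0.98) and Sytl2 (0.97), for Il21 Irf3 (0.98), Zfpm1 (0.97) and Ptpn11 (0.96), and for Tnf Icos (0.96), Hlcs (0.95) and Zbtb7b (0.95). Those of Ifng were Ahcyl1 (0.96), Tango2 (0.93) and 1700017B05Rik (0.93), those of Il10 Gm4707 (0.96), Ptprcap (0.92) and 1700017B05Rik (0.92), those of Tnfsf10 Myef2 (0.93), 4930503L19Rik (0.92) and Rnf11 (0.91), and those of Fas Lsg1 (0.91), Noc4l (0.87) and Cyren (0.87). Among the members, Ifng went with Il10 (0.90) and Fasl (0.77), Tnf with Il21 (0.88) and Il2 (0.71), and Tnfsf10 with Csf2 (0.78), whereas Il2 (-0.78) and Tnf (-0.69) ran opposite to Fasl. Il2 and Csf2 had means under 10 CPM in both lineages and enter only these pairs of members. The states share libraries, and the correlations cover 10 points each. They also include differences between the lineages, and both Tnf and Il21 were lower in CD8+ Tc.

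Within cells thinned to 2000 UMIs, members were compared between cells with and without a UMI of a second gene, and again with the cells without it weighted to the same states. CD8+ Tc with a Havcr2 UMI (391 cells) had an Ifng UMI in 19.8%, 20%, 22.0% and 22.1% of cells in the 4 libraries (21% ± 1.2), against 14.4% ± 1.94 of cells without one and 17.5% ± 3.08 of cells without one in the same states. The share was higher with Havcr2 in 4 of 4 libraries, also against the same states. Il10 was found in 4.14% ± 2.07 of cells with Havcr2 and 0.937% of those without, with 11 cells that held both, and against the same states the share was higher in 3 of 4 libraries. Tnfsf10 ran the other way, in 16.0% ± 1.89 of cells with Havcr2, 19.1% ± 3.15 of those without and 20.2% ± 3.7 in the same states, where the share with Havcr2 was higher in 0 of 4 libraries. Fasl was found in 21.9% ± 6.28 of cells with Havcr2, 20.7% ± 1.478 of those without and 25% ± 2.19 in the same states, where it was higher in 1 of 4 libraries. Fas was found in 4.8% ± 4.06 of cells with Havcr2 and 5.69% ± 0.91 of those without. Havcr2fl/fl;E8icre/+ replicate 2 gave 15 of the 391 cells. CD8+ Tc with Tcf7, the factor of precursor and memory Tc, had Ifng in 6.29% ± 1.15 of cells against 15.8% ± 2.16 without it, and Fasl in 4.88% ± 2.37 against 22.7% ± 1.22. For Fasl the share stayed lower against the same states in 4 of 4 libraries (10.0%), and for Ifng in the other 3 libraries but not in Havcr2fl/fl;E8icre/+ replicate 2 (8.65% on average). Il21 was found in 1.25% ± 1.67 of cells with Tcf7, from 7 cells with both, and 1.2% ± 0.334 without. Against the same states (4.88% ± 0.857) the Il21 share was higher with Tcf7 in 0 of 4 libraries. Tnf was found in 1.58% ± 1.17 with Tcf7, 1.45% ± 0.475 without and 2.11% ± 1.5 in the same states.

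In CD4+ Tc, joint detection was followed from the cells with an Ifng UMI (212 cells). Fasl was found in 18.8% ± 3.46 of them against 6.83% ± 1.17 of cells without Ifng and 12.9% ± 2.80 of such cells in the same states. Il21 was found in 18.9% ± 3 against 7.49% ± 2.12 and 8.68% ± 2.91, and Tnf in 7.5% ± 3.25 against 3% ± 0.997 and 2.05%, from 15 cells with both. Each of these 3 shares was higher with Ifng in 4 of 4 libraries under both comparisons. Tnfsf10 was found in 23% ± 7.03 of cells with Ifng, 17.1% of those without and 16.8% in the same states. Il10 was found in 3.29% ± 2.84, 1.76% and 4.54%, from 8 cells with both. Both were higher with Ifng in 2 of 4 libraries against the same states. In CD8+ Tc with an Ifng UMI (615 cells), Fasl, Tnf, Il21 and Il10 were higher in 3 of 4 libraries against the same states. Tnfsf10 was higher there in 2 of 4. Without thinning, Ifng and Tnf were found together in 49 of 4255 CD8+ Tc (1.15%), or 0.85%, 1.89%, 2.05% and 0.623% by library. The median CD8+ cell of these libraries had 4750, 6162, 6974 and 3024 UMIs, so these shares rose with depth. In CD4+ Tc both were found in 39 of 1755 cells (2.22%), or 1.73%, 2.72%, 1.24% and 2.88% by library. At least 2 of the 6 cytokines were detected in 4.42% of CD8+ Tc (3.66%, 6.29%, 7.6% and 2.72%). For CD4+ Tc this was 10.3% (10.2%, 11%, 7.47% and 10.9%).

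**Figure D4:**
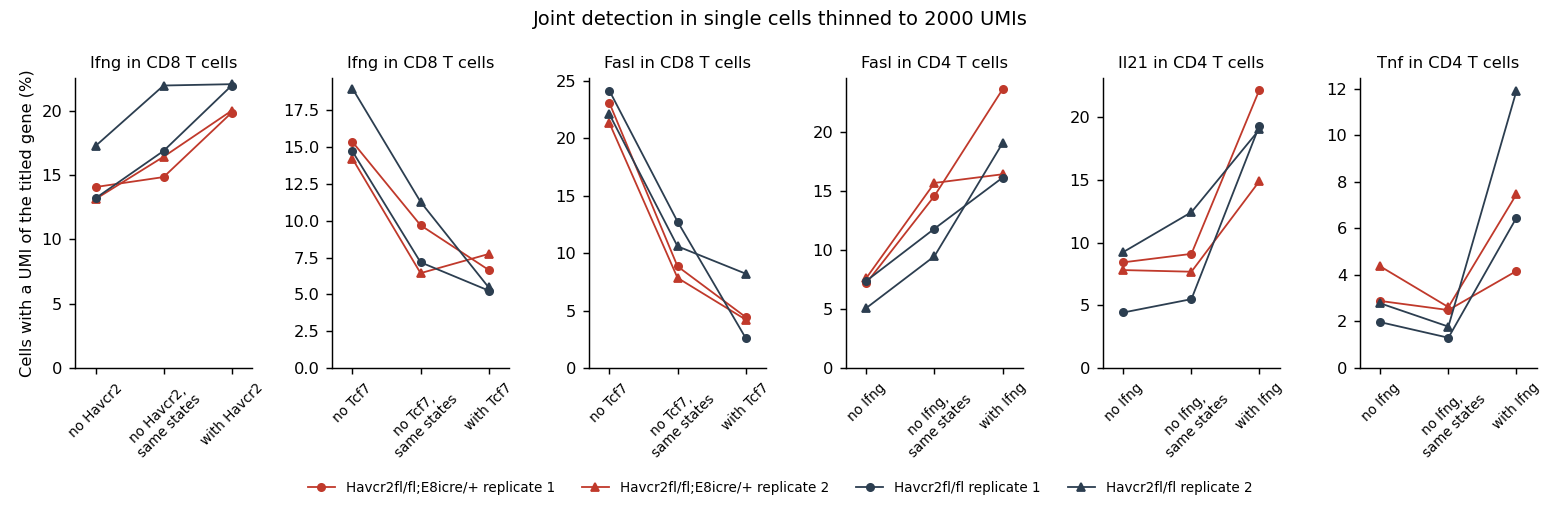
Share of thinned cells with a UMI of the gene in the title (vertical axes, percent) among cells without a second gene, cells without it weighted to the same states, and cells with it (horizontal axes), with 1 line per library (red, Havcr2fl/fl;E8icre/+; dark, Havcr2fl/fl; circles, replicate 1; triangles, replicate 2). Lines rise from left to right for Ifng with Havcr2 in CD8+ Tc, to 19.8% to 22.1%, and fall for Fasl with Tcf7.

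No member was called between the genotypes in CD8+ Tc. Over all 10872 genes edgeR called 3 (0.0276%), with 291 at an unadjusted p under 0.05, and DESeq2 called 4 genes and 0 members. Ifng had means of 85.3 ± 1.74 CPM in the Havcr2fl/fl;E8icre/+ libraries and 114 ± 3.07 in the Havcr2fl/fl libraries (n = 2 each), without overlap, a log2 difference of -0.45 (SE 0.17, unadjusted p = 0.0255, adjusted p = 0.999 by edgeR). Without the library labelled Havcr2fl/fl;E8icre/+ replicate 1 it was -0.42. The share of CD8+ Tc with an Ifng UMI at equal depth overlapped between the genotypes (13.9% ± 0.941 against 16.0% ± 2.94). Il10 lay lower in both Havcr2fl/fl;E8icre/+ libraries, with a log2 difference of -1.22 (SE 0.46, unadjusted p = 0.0259 by edgeR), which was -2.34 without the library labelled replicate 1 (adjusted p = 0.0856 by edgeR) and -0.65 without replicate 2. Fasl (-0.12, SE 0.17) and Tnfsf10 (0.22, SE 0.18) also did not overlap in CPM. These 4 of 9 members without overlap stand beside 27.0% of all genes. The log2 differences of Il21 (0.20, SE 0.40), Csf2 (0.42, SE 0.51), Tnf (0.23, SE 0.44) and Fas (0.07, SE 0.24) were smaller than their errors. Without the library labelled Havcr2fl/fl;E8icre/+ replicate 1, the log2 differences were -0.11 for Fasl, 0.32 for Tnfsf10, 0.63 for Il21, 0.94 for Csf2, 0.71 for Tnf and -0.049 for Fas. The median of the 8 members tested was 0.138, beside -0.00327 over all genes. Havcr2 itself differed by -1.35 (SE 0.65, adjusted p = 0.999 by edgeR), and by -3.40 without the library labelled Havcr2fl/fl;E8icre/+ replicate 1 (adjusted p = 0.000217 by edgeR).

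In CD4+ Tc edgeR called 1 of 9650 genes (0.0104%), with 307 at an unadjusted p under 0.05 and 6 by DESeq2, and none of the 9 members by either. Tnfsf10 was at 120.5 ± 7.72 CPM in the Havcr2fl/fl;E8icre/+ libraries and 83.6 ± 8.89 in the Havcr2fl/fl libraries (n = 2 each), a log2 difference of 0.48 (SE 0.20, unadjusted p = 0.0376 by edgeR) that was 0.45 without the library labelled replicate 1. Csf2 differed by -1.35 (SE 0.56, unadjusted p = 0.0373 by edgeR), and by -1.002 without that library. Il2 (-0.88, SE 0.59) was the third member without overlap, and 3 of 9 stands beside 31.2% of all genes. Ifng had -0.42 (SE 0.36) and turned to 0.43 without Havcr2fl/fl replicate 2, whose CD4+ level was the highest. The log2 differences were 0.21 for Fasl, 0.25 for Fas, 0.19 for Il10, -0.17 for Il21 and 0.04 for Tnf. Without the library labelled Havcr2fl/fl;E8icre/+ replicate 1 they were 0.49 for Fasl, 0.43 for Fas, -1.29 for Il10, -0.16 for Il21, 0.43 for Tnf, -0.46 for Il2 and -0.52 for Ifng. The median over the 9 members was 0.0354, beside -0.00621 over all genes.

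Whether the genotype difference itself differed between CD8+ and CD4+ Tc was tested as an interaction, where 2 of 10877 genes were called by edgeR (0.0184%), with 481 at an unadjusted p under 0.05, and 0 of the 9 members. The largest member values were 1.83 for Csf2 (SE 0.63, unadjusted p = 0.0128 by edgeR), 1.5 for Il2 (SE 0.86) and -1.47 for Il10 (SE 0.65, unadjusted p = 0.0424 by edgeR), and without the library labelled Havcr2fl/fl;E8icre/+ replicate 1 they were 1.93, 1.41 and -1.13. The other 6 ran from -0.31 for Fasl to 0.37 for Il21, and from -0.6 for Fasl to 0.8 for Il21 without that library. Il10 was called without Havcr2fl/fl replicate 2 (-3.58, adjusted p = 0.023 by edgeR). DESeq2 was not run for the interaction.

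**Figure D5:**
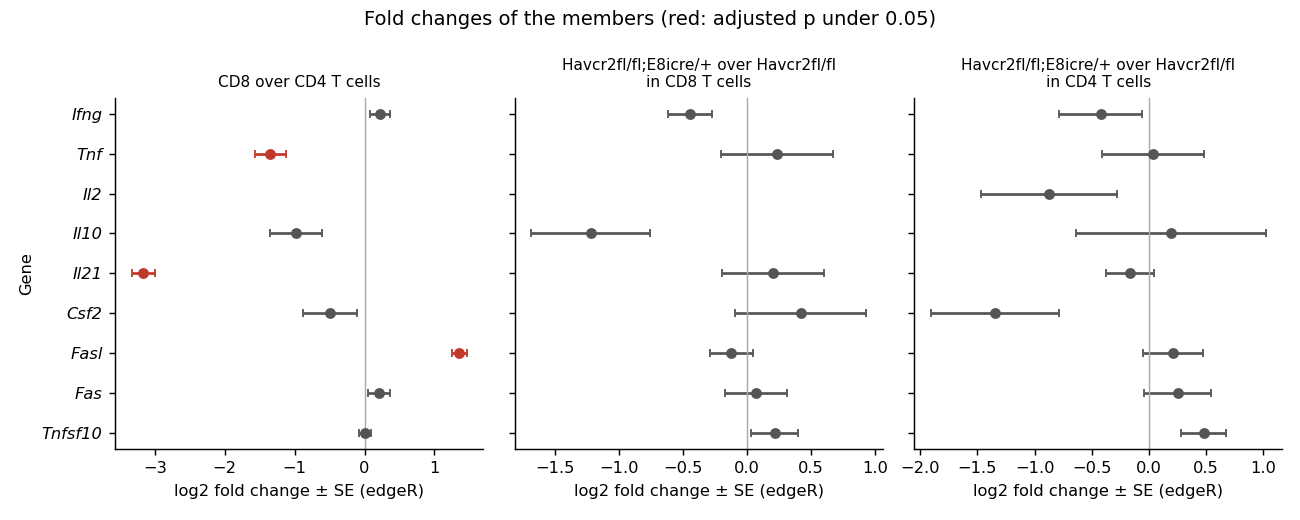
Log2 fold change of each gene (vertical axis) with its standard error for CD8+ over CD4+ Tc (left) and for Havcr2fl/fl;E8icre/+ over Havcr2fl/fl in CD8+ Tc (middle) and CD4+ Tc (right), from edgeR. Red marks an adjusted p under 0.05: Fasl, Il21 and Tnf in the left panel and no gene in the others. Il2 is drawn only on the right, where it had enough UMIs.

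Within the 10 states no member was called between the genotypes by edgeR or DESeq2. The edgeR filter left many members out. Il2 was tested in none of the states, Csf2 only in Itga1 Cd160 cells, and Tnf only in Itga1 Cd160 and Igfbp7 Cxcr6 cells. Il10 was tested only in CD8 effector-like, CD8 cycling-like and CD4 cytotoxic-like cells. The states had 0.0% of genes called, except CD8 cycling-like cells with 4 of 7339 (0.0545%) and CD4 Ifitm1 Klrk1 cells with 4 of 4743 (0.0843%). The member values with an unadjusted p under 0.05 were Ifng in Gzma Nr4a2 cells (-0.74, SE 0.22, unadjusted p = 0.00495 by edgeR) and in CD4 precursor or memory-like cells (-1.78, SE 0.52, unadjusted p = 0.0025 by edgeR). Further such values were Il10 in CD8 cycling-like cells (-2.40, SE 0.77, unadjusted p = 0.00407 by edgeR), Fasl in TPEX-like cells (-0.90, SE 0.42, unadjusted p = 0.0457 by edgeR), and Tnfsf10 in short-term effector-like cells (0.94, SE 0.32, unadjusted p = 0.00834 by edgeR) and CD4 Ifitm1 Klrk1 cells (0.93, SE 0.38, unadjusted p = 0.0202 by edgeR). Without the library labelled Havcr2fl/fl;E8icre/+ replicate 1 the values were -0.73 and -1.63 for Ifng in these states, -3.58 for Il10, -0.81 for Fasl, and 1.02 and 1.11 for Tnfsf10, none of them called. In short-term effector-like cells the Tnfsf10 difference is 63.4 and 65.4 against 33.2 and 32.2 CPM. Outside the Tc clusters Tnfsf10 was also higher without overlap (means 13.1 against 6.22 CPM), though myeloid or leukemia-like cells overlapped (5.40 against 5.74). The same held in Tc with UMIs of neither Cd8 nor Cd4 (91.0 against 49.9). Of the 10 states, effector-like, Gzma Nr4a2, CD4 cytotoxic-like and CD4 precursor or memory-like cells overlapped in Tnfsf10. Over all genes, an unadjusted edgeR p under 0.05 was reached by 298 of 7254 in Gzma Nr4a2 and 350 of 7339 in CD8 cycling-like cells. It was reached by 401 of 6672 in TPEX-like and 203 of 6182 in short-term effector-like cells. For CD4+ Tc it was 161 of 3429 in precursor or memory-like and 249 of 4743 in Ifitm1 Klrk1 cells.

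Other genes of the same pathways were followed by lists, with the lineages compared first. Of 11 other TNF family ligands 10 were tested, and 8 were lower in CD8+ Tc and 2 higher by edgeR (median log2 difference -1.28). The lower ones included Cd40lg, the helper signal to B cells (3.18 CPM in CD8+ and 46.1 in CD4+ Tc, -3.70, SE 0.20), Tnfsf11 (-3.34), Cd70 (-3.31), Tnfsf8 (-1.63), Lta (-1.43) and Tnfsf9 (-1.14), and the higher ones were Tnfsf4 (2.22) and Tnfsf13b (0.66). Fasl, higher in CD8+ Tc, stood with the minority of this family. Of 17 other cytokines 5 were tested and all 5 were lower in CD8+ Tc: Ebi3, a subunit of interleukins 27 and 35 (1.13 and 23.6 CPM, -4.29, SE 0.24), Areg (-2.04), Osm (-0.92), Tgfb1 (-0.29) and Il16 (-0.19).

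Of 14 receptor genes of the members 9 were tested, and 5 were higher and 3 lower in CD8+ Tc. The higher ones were Tnfrsf1a, a receptor of TNF (41.3 and 15.7 CPM, 1.45, SE 0.14), Il21r (0.46), Tnfrsf1b (0.36), Il2rb (0.34) and Il10rb (0.32), and the lower ones Il2ra (8.64 and 67.0 CPM, -3.02), Il2rg (-0.54) and Ifngr1 (-0.50). Among 16 genes of death receptor signaling 15 were tested, with 1 called higher and 3 lower in CD8+ Tc. Over all genes 12.1% were called higher and 12.2% lower. The 3 lower ones were Birc3 (-0.55), Birc2 (-0.35) and Cflar (-0.27), inhibitors of that pathway. By sign alone 7 of the 15 were higher and 8 lower, with a median of -0.053. Of 22 transcription factors of cytokine genes 20 were tested, with 4 higher, Eomes (166 and 49.2 CPM, 1.72), Runx3 (1.3), Tbx21 (0.30) and Stat3 (0.25), and 11 lower, among them Maf (60.8 and 526 CPM, -3.06) and Gata3 (-1.34). Of 9 regulators of cytokine mRNA all were tested and 4 were lower, the ZFP36 family members Zfp36l1 (134 and 225 CPM, -0.71) and Zfp36l2 (383 and 628 CPM, -0.66), and Zc3h12a (-0.48) and Zc3h12d (-0.40). Of 14 targets of interferon-gamma 12 were tested, with Irf1 higher (0.33) and 6 lower, from Iigp1 (25 and 100.1 CPM, -1.95) to Gbp2 (-0.26). Of 12 early response genes 8 were tested and 6 were lower in CD8+ Tc, among them Dusp1 (-1.38), Hspa1b (-1.37) and Jun (-1.23). In none of these 8 lists was a gene called by edgeR between the genotypes in CD8+ or CD4+ Tc, or in the interaction.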

How the data were processed

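Libraries were made with the 10x Chromium Single Cell 3′ v3.1 kit and processed, per the submitters' processing notes, with Cell Ranger 6.1.2 against mm10; the annotation release is not given in the sources used here. The deposited matrices hold UMI counts per gene and barcode, without normalization by the authors. Groups were taken from the genotype labels. A cell passed with 500 or more genes, 1000 or more UMIs and no more than 10% of UMIs from mitochondrial genes (11632 cells), Scrublet calls were removed (119 cells), and a tag for the donor haplotype was used only in an alternative. Scrublet marked 105 cells in Havcr2fl/fl replicate 2 and 1 to 7 in the other libraries. Tc were clustered with Seurat 5.3.0 (CCA integration, R 4.3.3) without the 9 members, Havcr2, sex-linked and receptor variable genes, and CD8+ or CD4+ identity came from Cd8 and Cd4 UMIs of each cell.

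UMI counts were summed per library over the cells of a class and tested with edgeR 4.0.16 (quasi-likelihood, filterByExpr, TMM, Benjamini-Hochberg over all genes tested, threshold 0.05), with the mouse as a block between lineages; standard errors are the log2 fold change over the square root of F. Each library is 1 mouse, so genotype p-values rest on the spread between 2 mice per genotype, with dispersion moderated over genes by edgeR. Those of the lineage and interaction tests, which block on the mouse, rest on how the difference between lineages varied over the mice. Without a library, an arm of 1 sample is assumed to vary like the rest. Thinning drew 2000 UMIs per cell and left out shallower cells, and its intervals (95%, Wilson) cover counting error only. Alternatives were DESeq2 1.42.0, other scaling, no count filter, a stricter cell filter (1000 genes, 5% mitochondrial UMIs), doublets at an expected rate, donor tag positive cells, lineage by cluster, replicate and mouse blocks, other clusterings, thinning to 1000 UMIs and leaving out each library. DESeq2 in states, a crossed block, and levels and shares without each library or without the cell of most UMIs were added after the data were seen. The edgeR scripts were tested on simulated counts.

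The members, lists and states were chosen with earlier results of these data known. Named were all 9 members, up to 6 genes per direction from each list past the threshold, the 3 genes most like each member over states (at least 10 CPM, pseudocount 1), and Havcr2 with the markers of states. The replicate numbers were not taken as pairs: same-numbered libraries deviated from their group means with a correlation of -0.143 in CD8+ and -0.0568 in CD4+ Tc. Promoters, proteins and receptor clonotypes were not analysed here. The result of 1 listed gene is not reported here.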

Additional observations from a re-analysis of the deposited data

Results flagged for a closer look

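Some member RNA lay in the 4750 cells outside the Tc clusters, which no comparison used. Over all 4 libraries these cells held 104 Ifng, 105 Tnf, 10 Il2, 16 Il10, 44 Il21, 96 Fasl, 299 Fas and 875 Tnfsf10 UMIs, each above the 3 UMIs that a count of 0 allows, while Csf2 had 1. Tnfsf10 reached 14.4, 11.8, 6.41 and 6.04 CPM in the 4 libraries and Fas 3.48, 4.29, 6.59 and 1.65, all below the CD8+ and CD4+ Tc of the same library. By cell type, Tnfsf10 stood at 24.6 CPM in stem or progenitor-like cells (195 UMIs in 354 cells), at 20.1 CPM in B-like cells (37 UMIs in 111 cells) and at 15.1 CPM in basophil or mast-like cells. Fas stood at 12.5 CPM in B-like, 8.71 in dendritic-like and 8.30 in myeloid or leukemia-like cells (105 UMIs in 348 cells), where Tnf was at 3.16 CPM (40 UMIs). Of the 33 Ifng UMIs in erythroid-like cells, 26 came from the library labelled Havcr2fl/fl;E8icre/+ replicate 1. Whether free RNA from Tc gave these UMIs was not tested.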

How the results depend on the processing

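The higher Fasl and the lower Il21 and Tnf of CD8+ against CD4+ Tc kept their direction and their side of the threshold under every alternative run, with log2 ranges of 1.27 to 1.57, -3.46 to -2.96 and -1.58 to -1.12. That comparison called 2512 genes, 1520 by DESeq2 and 1025 without the mouse block, and 1718 to 2159 without 1 library; of the members 3 were called, 6 with lineage by cluster or without the filter, and 3 to 4 without 1 library. Between the genotypes 3 genes were called in CD8+ Tc, 98 without the filter, 0 with the replicate block, 71 with the crossed block (1 member, Il10) and 2 to 33 without 1 library. In CD4+ Tc 1 was called, 6 by DESeq2, 43 without the filter, 2 with lineage by cluster, 36 with the crossed block, 0 with the replicate block, the stricter cells or the expected doublet rate, and 5 to 27 without 1 library. The interaction called 2, 57 without the filter, 8 with the replicate block and 4 to 33 without 1 library (0 to 1 member); the states called 8, 5 by DESeq2, 245 without the filter, 51 with the replicate block and 75 to 299 without 1 library (0 to 2 members, the 2 without Havcr2fl/fl replicate 1). The cause was not tested. The block by replicate number changed no member's call in CD8+ or CD4+ Tc.

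Genotype values that changed sign were Fas in CD8+ Tc (-0.051 with stricter cells, -0.052 with lineage by cluster) and, in CD4+ Tc, Il10 (-2.36) and Fasl (-0.10) with lineage by cluster and Tnf (-0.012 by DESeq2, -0.33 with lineage by cluster, -0.039 with the replicate block). Tnfsf10 between lineages was 0.00 (-0.0026 without the mouse block, -0.0049 with the expected doublet rate, -0.62 with lineage by cluster). Without 1 library, values ran in CD8+ Tc from -0.36 to 0.63 for Il21, -0.32 to 0.94 for Csf2, -0.42 to 0.71 for Tnf and -0.23 to 0.43 for Fas. In CD4+ Tc they ran from -1.29 to 2.296 for Il10, -0.15 to 0.49 for Fasl, -0.36 to 0.019 for Il21, -1.003 to 0.43 for Ifng, -0.30 to 1.27 for Havcr2, -0.61 to 0.62 for Tnf and -0.047 to 0.54 for Fas. Between lineages they ran from -0.087 to 0.11 for Tnfsf10 and -1.01 to 0.031 for Csf2, and in the interaction from -0.60 to 0.028 for Fasl, -0.15 to 0.80 for Il21, -0.85 to 0.54 for Ifng, -0.62 to 1.04 for Tnf and -0.77 to 0.48 for Fas. Log2 ratios of a state to other Tc of its lineage were -2.25 (higher resolution), -2.30 (members left in) and 0.67 (without the top cell) for Ifng in interferon-stimulated-like cells, 1.88 (higher resolution) for Il21 in TPEX-like cells and 0.47 (without the top cell) for Tnf in CD4 precursor or memory-like cells. The log2 ratio of CD8+ to CD4+ shares was 0.32 for Ifng at 1000 UMIs, and for Fas it ran from -0.21 to 0.26 without 1 library. Il2, Csf2 and Il10 rested on few UMIs. So did Tnf (159 UMIs in CD8+ and 167 in CD4+ Tc) and, in CD8+ Tc, Il21 (166 UMIs). Differences of these genes were therefore not detectable at this depth unless large.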
